A study of Mus musculus with 8 samples.

Results

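The genes described here are those of cholesterol synthesis, uptake and efflux, measured by RNA sequencing in Lineage- Sca-1+ c-Kit+ (LSK) cells of mouse bone marrow, the sorted fraction in which haematopoietic stem cells and multipotent progenitors are found. They were chosen by name, from 33 listed symbols. The files held 32 of these among 23284 genes, with the listed Msmo1 present under its older symbol Sc4mol. By role they were 18 synthesis enzymes, 5 genes of SREBP control, 5 of uptake, transport and storage, and 4 of LXR signalling and efflux. The donors were male C57BL/6 mice, 12 to 13 weeks old, fasted for more than 14 hours before each intravenous injection and injected on 7 days. The glucose group (2 libraries) received 2 g/kg glucose. The glucose+lipid group (2 libraries) received the same glucose with 6 mL/kg of Intralipid, a 20% lipid emulsion. The control mice (4 libraries) received PBS, and all marrow was collected on day 8. The labels call the libraries biological replicates and do not say whether each came from 1 mouse or a pool, so the tests measure the spread between these libraries. The labels give no genetic modification for any group.

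Cholesterol is built from acetyl-CoA through mevalonate, farnesyl diphosphate, squalene and lanosterol. The transcription factor SREBP2 (Srebf2) drives most genes of this route. Its escort Scap carries it from the endoplasmic reticulum to be cleaved when membrane sterol is low, and the Insig proteins hold it back when sterol is plentiful. The LXR receptors respond to oxysterols and drive the exporters Abca1 and Abcg1 and the ubiquitin ligase Mylip, which lowers lipoprotein uptake. Insig1 is itself an SREBP target. In mice, joint loss of the exporters Abca1 and Abcg1 is known to expand LSK cells.

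The files give FPKM, fragments scaled to transcript length and library size. The value of 1 fragment gave approximate depths of 5760000 to 8360000 fragments per library. Median-of-ratios factors of the deposited values ran from 0.9978 to 1.0043. These depths may therefore reflect a scaling between libraries and not total fragments. The series gives each treatment its own PBS controls without naming them. PBS replicates 1 and 2 share the sample letters H and I and a name tag with the glucose+lipid libraries, and were taken as their controls (PBS H and I). PBS replicates 3 and 4 (PBS J and K) were taken as the controls of glucose by elimination. The 6 LSK genes fixed as markers were all above 0 in every library, with a summed level of 1283 to 1663 FPKM. Glucose+lipid replicate 1 stood apart: 9 neutrophil markers summed to 65268 FPKM in it and to 143.3 to 449.9 FPKM in the other 7 libraries, and 8 macrophage and monocyte markers summed to 648.8 FPKM against 45.7 to 82.7 FPKM elsewhere. The 8 erythroid markers summed to 2948 and 1708 FPKM in the glucose+lipid libraries and to 294.8 to 805.7 FPKM in the other 6. Among the neutrophil markers, Retnlg was at 0 in glucose replicate 2 and PBS replicate 1, Mmp8 in PBS replicate 3 and Elane in PBS replicate 4. Summed over 8 early response genes, which also react to the handling of cells, the 4 treated libraries held 2799.6 to 3324 FPKM and the 4 PBS libraries 1336 to 1560.3 FPKM. The part of these differences in the results was not tested, and values without glucose+lipid replicate 1 are given where they bear on a result.

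All 32 genes passed the filter of at least 1 FPKM in at least 2 libraries. Averaged over the 8 libraries, Srebf2 had the highest level at 77.2 FPKM. The enzymes Sc4mol (52.9 FPKM), Ebp (50.1 FPKM) and Sqle (47.8 FPKM) followed, and the enzymes Hsd17b7 (3.73 FPKM) and Idi1 (3.67 FPKM) were the lowest of the route. The nuclear receptor gene Nr1h3 (LXR-alpha) reached 1 FPKM in 4 of 8 libraries and the exporter gene Abca1 in 5, so their values rest on few fragments. The related receptor Nr1h2 (LXR-beta) averaged 37.5 FPKM and the exporter Abcg1 averaged 29.0 FPKM. LSK cells of all groups thus held Nr1h2 and Abcg1 transcript well above that of Nr1h3 and Abca1, per transcript length.

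**Figure D1:**
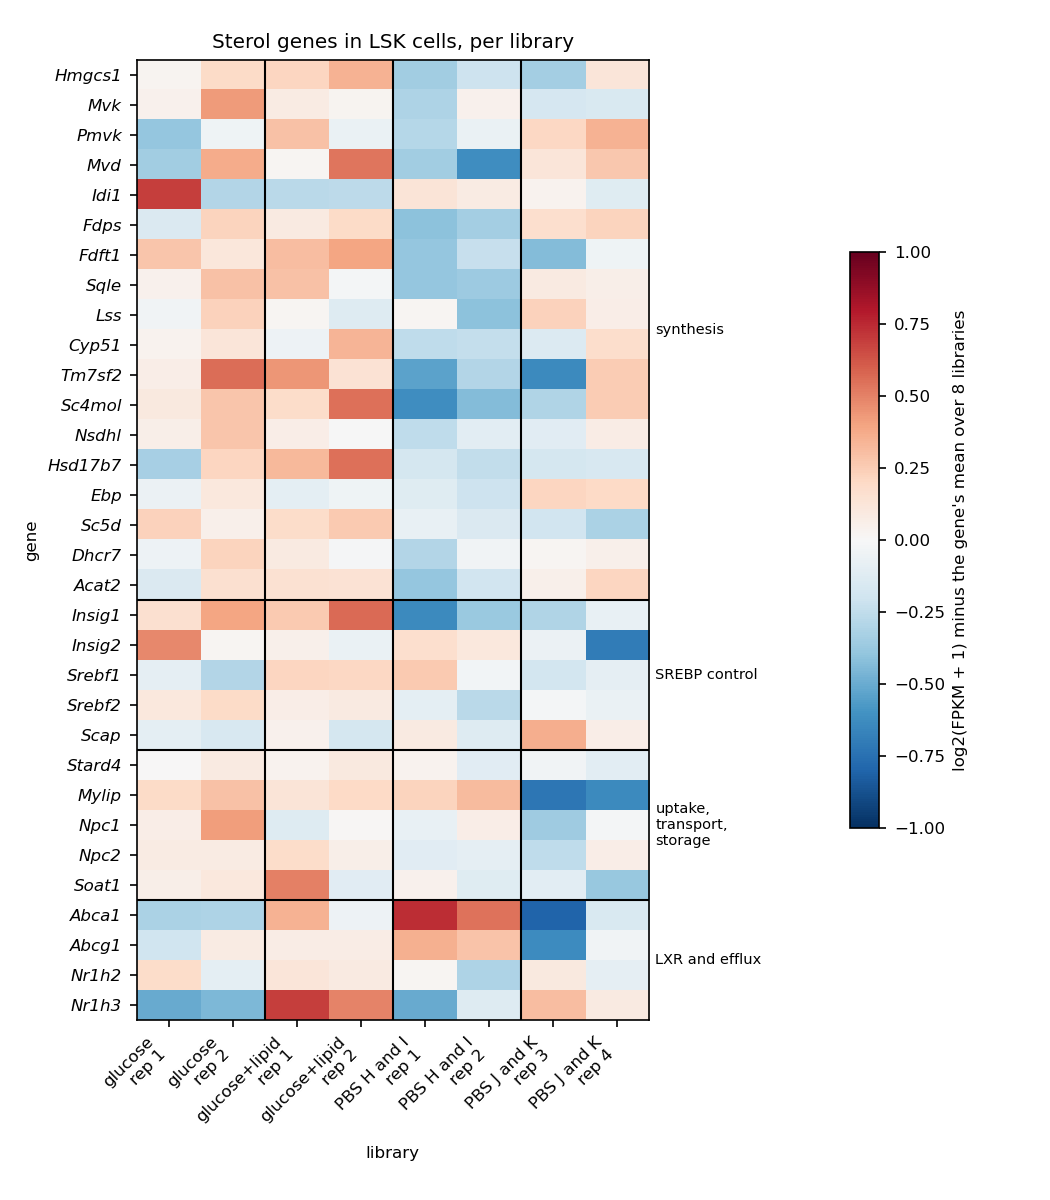
Each row is 1 of the 32 genes and each column 1 library; colour gives log2(FPKM + 1) minus the gene's mean over the 8 libraries, and black lines part the groups and the roles. Most synthesis enzymes are below their mean in both PBS H and I libraries, and Mylip is low in the PBS J and K libraries.

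Promoter sequences of 26 of the 32 genes were found in RefSeq (GRCm38.p6). Those printed here are the 250 bases before the RefSeq start of Hmgcs1, Sc4mol, Srebf2 and Insig1. Hmgcs1, Sc4mol and Srebf2 were the only members whose window held the sterol element-like motif TCACNCCA. Insig1 was the member with the smallest p when all treated libraries were set against all PBS libraries. Capitals mark TCACNCCA, the CCAAT box and the E-box CACGTG on either strand; none of the marked motifs overlap another. The printed bases of Hmgcs1 lie at chr13:119690101-119690350 (plus strand) and those of Sc4mol at chr8:64733579-64733828 (minus strand). Those of Srebf2 lie at chr15:82147019-82147268 (plus strand) and those of Insig1 at chr5:28071162-28071411 (plus strand). In GENCODE the genes Sc4mol, Srebf2 and Insig1 start inside these stretches, at 64733792, 82147181 and 28071363. Part of each of these stretches thus lies within the GENCODE gene.
Hmgcs1: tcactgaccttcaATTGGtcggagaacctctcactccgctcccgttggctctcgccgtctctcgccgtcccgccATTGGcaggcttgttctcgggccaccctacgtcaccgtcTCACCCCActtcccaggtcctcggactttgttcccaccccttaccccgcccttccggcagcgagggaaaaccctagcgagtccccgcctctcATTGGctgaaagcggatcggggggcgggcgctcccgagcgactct
Sc4mol: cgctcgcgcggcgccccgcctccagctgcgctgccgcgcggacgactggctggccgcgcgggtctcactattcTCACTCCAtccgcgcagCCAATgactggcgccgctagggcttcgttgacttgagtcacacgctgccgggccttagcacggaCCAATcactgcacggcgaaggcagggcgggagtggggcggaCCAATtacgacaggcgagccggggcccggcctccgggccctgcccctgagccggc
Srebf2: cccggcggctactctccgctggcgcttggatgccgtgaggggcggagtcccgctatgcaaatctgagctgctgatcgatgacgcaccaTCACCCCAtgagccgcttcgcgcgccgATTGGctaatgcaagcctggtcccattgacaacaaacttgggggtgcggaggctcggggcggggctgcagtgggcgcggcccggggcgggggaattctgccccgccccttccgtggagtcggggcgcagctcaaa
Insig1: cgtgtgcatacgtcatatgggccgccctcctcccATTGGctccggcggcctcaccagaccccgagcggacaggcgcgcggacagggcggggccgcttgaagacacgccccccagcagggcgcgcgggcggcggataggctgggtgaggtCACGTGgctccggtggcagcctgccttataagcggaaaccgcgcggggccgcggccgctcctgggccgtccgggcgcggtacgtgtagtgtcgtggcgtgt

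Counted from -1 at the base before the RefSeq start, TCACNCCA began at -137 in Hmgcs1, -177 in Sc4mol and -162 in Srebf2. Over full windows of 300 bases, which run 50 bases past the start, it was present in 3 of 26 members, against 4.97% of 27025 genes. The CCAAT box, which NF-Y binds beside SREBP sites in many sterol genes, was present in 21 of 26 members, 14 of them among the 15 synthesis enzymes with a window, against 41.1% of all genes. The E-box CACGTG was present in 6 of 26 members (Insig1, Sc5d, Dhcr7, Hsd17b7, Abca1 and Scap), against 8.09% of all genes. The LXR-type direct repeat, AGGTCA given again after 4 bases of any kind, was in no member window and in 0.0148% of all genes. These matches describe the letters in the windows only.

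The synthesis enzymes were compared first between glucose+lipid and PBS H and I. No enzyme passed the test over all genes there (limma, Benjamini-Hochberg at 0.05, background 0.0587% of all genes called higher and 0.0168% lower, 0.0754% together), while 10 of 18 were higher at an unadjusted p under 0.05 (5.87% of all genes) and none was lower (5.93%). Both treated libraries lay above both controls for 15 of 18 enzymes (22.2% of all genes) and below them for 1, Idi1 (21.8%). The log2 fold changes of the enzymes had a median of 0.42, against 0.011 over all genes tested. In these bulk samples, a change in the share of a cell type and a change in RNA per cell cannot be told apart.

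Sc4mol, the methylsterol oxidase that begins removal of the C4 methyl groups, stood at 58.0 and 75.2 FPKM after glucose+lipid, against 32.9 and 37.5 FPKM in the PBS H and I pair. Its log2 fold change was 0.89 ± 0.20 (SE, adjusted p = 0.228), and 0.39 with PBS J and K as controls. The same transcript stood at 54.7 and 62.2 FPKM after glucose, against 41.3 and 61.2 FPKM in the PBS J and K pair. PBS replicate 4 thus lay within the range of the treated libraries. Fdft1, squalene synthase, which commits farnesyl diphosphate to sterols, stood at 18.9 and 20.0 FPKM after glucose+lipid, against 11.2 and 12.6 FPKM in the PBS H and I pair, a log2 fold change of 0.66 ± 0.17 (adjusted p = 0.25). Sqle, the epoxidase that acts on squalene next, stood at 57.9 and 46.5 FPKM against 35.8 and 36.4 FPKM, a log2 fold change of 0.51 ± 0.14 (adjusted p = 0.265). PBS J and K held 50.2 and 49.1 FPKM of Sqle, within the range of the glucose+lipid libraries, and with that pair as controls its log2 fold change was 0.061. Fdps, which makes farnesyl diphosphate, stood at 27.7 and 29.8 FPKM after glucose+lipid, against 19.3 and 20.2 FPKM in the PBS H and I pair, and its log2 fold change was 0.52 ± 0.15 (adjusted p = 0.272). Its level in PBS J and K was 29.2 and 30.4 FPKM, and against that pair the log2 fold change was -0.0505. Of these 4 enzymes, Fdft1 was the one whose treated libraries lay above all 4 PBS libraries.

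Further enzymes without overlap were Hmgcs1, which makes HMG-CoA (30.3 and 33.3 FPKM after glucose+lipid, against 20.1 and 22.3 FPKM in the PBS H and I pair), and the mevalonate decarboxylase Mvd (8.06 and 12.0 FPKM against 6.02 and 4.81 FPKM). Hsd17b7, a ketosteroid reductase of C4 demethylation, stood at 4.78 and 5.77 FPKM against 3.08 and 2.89 FPKM. The sterol reductase Tm7sf2 stood at 5.35 and 4.18 FPKM against 2.23 and 2.83 FPKM. The thiolase Acat2 stood at 33.7 and 33.4 FPKM against 22.8 and 26.3 FPKM, and the demethylase Cyp51 at 26.8 and 35.5 FPKM against 23.1 and 23.4 FPKM. In each of these 6 enzymes both treated libraries exceeded both controls. Idi1, the isomerase of isopentenyl diphosphate, ran the other way, with 2.79 and 2.80 FPKM after glucose+lipid and 3.997 and 3.83 FPKM in the PBS H and I pair. Mvk and Lss overlapped between the groups. Pmvk, Nsdhl, Ebp, Sc5d and Dhcr7 were higher without overlap. Without glucose+lipid replicate 1, the library rich in neutrophil transcripts, 17 of 18 enzymes were above 0, as with it, and the median was 0.40. The choice of controls moved the median by more than 1.5 times: it was 0.071 against PBS J and K and 0.25 against all 4 PBS libraries.

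After glucose 12 of 18 enzymes were above 0 against PBS J and K, and 17 of 18 against PBS H and I or all 4 PBS libraries. None passed (background 0.0922% of all genes higher and 0.00838% lower, 0.101% together), 2 were higher (6.41%) and 1 lower (8.44%) at an unadjusted p under 0.05, and the median log2 fold change was 0.10, against -0.00014 over all genes tested. Both glucose libraries lay above both PBS J and K libraries for 3 enzymes, Fdft1, Mvk and Sc5d (22.3% of all genes), and below for 2, Pmvk and Ebp (24.8%). Sc5d, the sterol desaturase near the end of the route, stood at 39.5 and 34.8 FPKM after glucose, against 29.2 and 26.7 FPKM in the PBS J and K pair, a log2 fold change of 0.40 ± 0.12 (adjusted p = 0.232) that was 0.25 against PBS H and I. Pmvk, phosphomevalonate kinase, stood at 20.5 and 26.3 FPKM against 31.4 and 34.7 FPKM, a log2 fold change of -0.49 ± 0.18 (adjusted p = 0.282). Its log2 fold change against PBS H and I (22.0 and 25.8 FPKM) was -0.036, and without glucose replicate 1 it was -0.32. The glucose libraries also differed between themselves: Idi1 stood at 6.35 FPKM in replicate 1 and 2.71 FPKM in replicate 2, and Mvd at 6.02 and 10.5 FPKM. The median of the enzymes was 0.20 without glucose replicate 1, -0.0088 without glucose replicate 2 and 0.034 without PBS replicate 3. It was 0.34 with the PBS H and I pair as controls and 0.18 with all 4 PBS libraries.

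**Figure D2:**
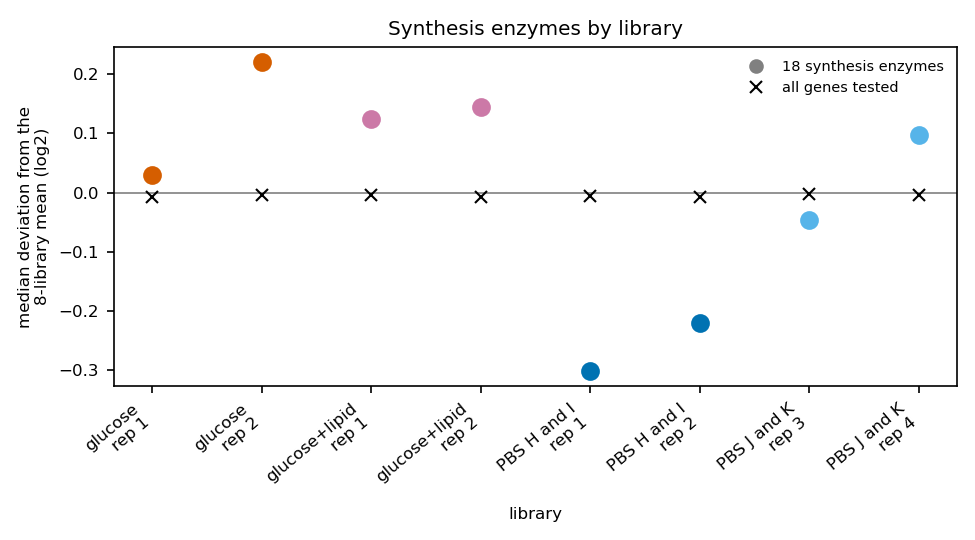
For each library, the circle is the median over 18 synthesis enzymes of the deviation from the gene's mean over the 8 libraries (log2 scale) and the cross is the same over all genes tested. Both PBS H and I libraries are lowest, at -0.30 and -0.22, and PBS replicate 4 lies at 0.097, among the treated libraries.

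The 2 PBS pairs differed from each other in these enzymes. In PBS H and I, 15 of 18 enzymes were below PBS J and K, with a median log2 fold change of -0.25, against 0.00037 over all genes tested. None passed (background 0.0419% of all genes higher and 0.00838% lower, 0.0503% together), 7 were lower (9.72%) and none higher (7.53%) at an unadjusted p under 0.05, and 11 were lower without overlap (25.3%) and 2 higher (24.4%). For Fdps the log2 fold change was -0.57 ± 0.15 (adjusted p = 0.156). Of the 4 groups, PBS H and I had the lowest mean level for 14 of 18 enzymes, glucose+lipid the highest for 8, glucose for 6 and PBS J and K for 4. The median was -0.38 without PBS replicate 3 and -0.15 without PBS replicate 4. Mice of both pairs received PBS alone, so the lower enzyme levels of PBS H and I and the treatment difference in glucose+lipid share the same control libraries.

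Setting the 4 treated against the 4 PBS libraries, with the control pair as a block, gave a median of 0.26 for the enzymes, against -0.007 over all genes tested. None passed (background 0.268% of all genes higher and 0% lower), and 6 were higher (6.18%) and none lower (5.22%) at an unadjusted p under 0.05. Fdft1 and Sc5d were the 2 enzymes in which all 4 treated libraries lay above all 4 PBS libraries (3.55% of all genes), and no enzyme lay below (2.84%). Fdft1 averaged 18.4 ± 1.56 FPKM in treated and 12.3 ± 1.69 FPKM in PBS libraries (SD, n = 4 each), a log2 fold change of 0.55 ± 0.12 (SE, limma adjusted p = 0.191). Sc5d averaged 38.2 ± 2.48 FPKM in treated and 29.5 ± 2.16 FPKM in PBS libraries (SD, n = 4 each), a log2 fold change of 0.36 ± 0.085 (SE, limma adjusted p = 0.2). On GRCm38, Fdft1 lies on chromosome 14 at 63145150 to 63179578 and Sc5d on chromosome 9 at 42251595 to 42264256, both on the minus strand.

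**Figure D3:**
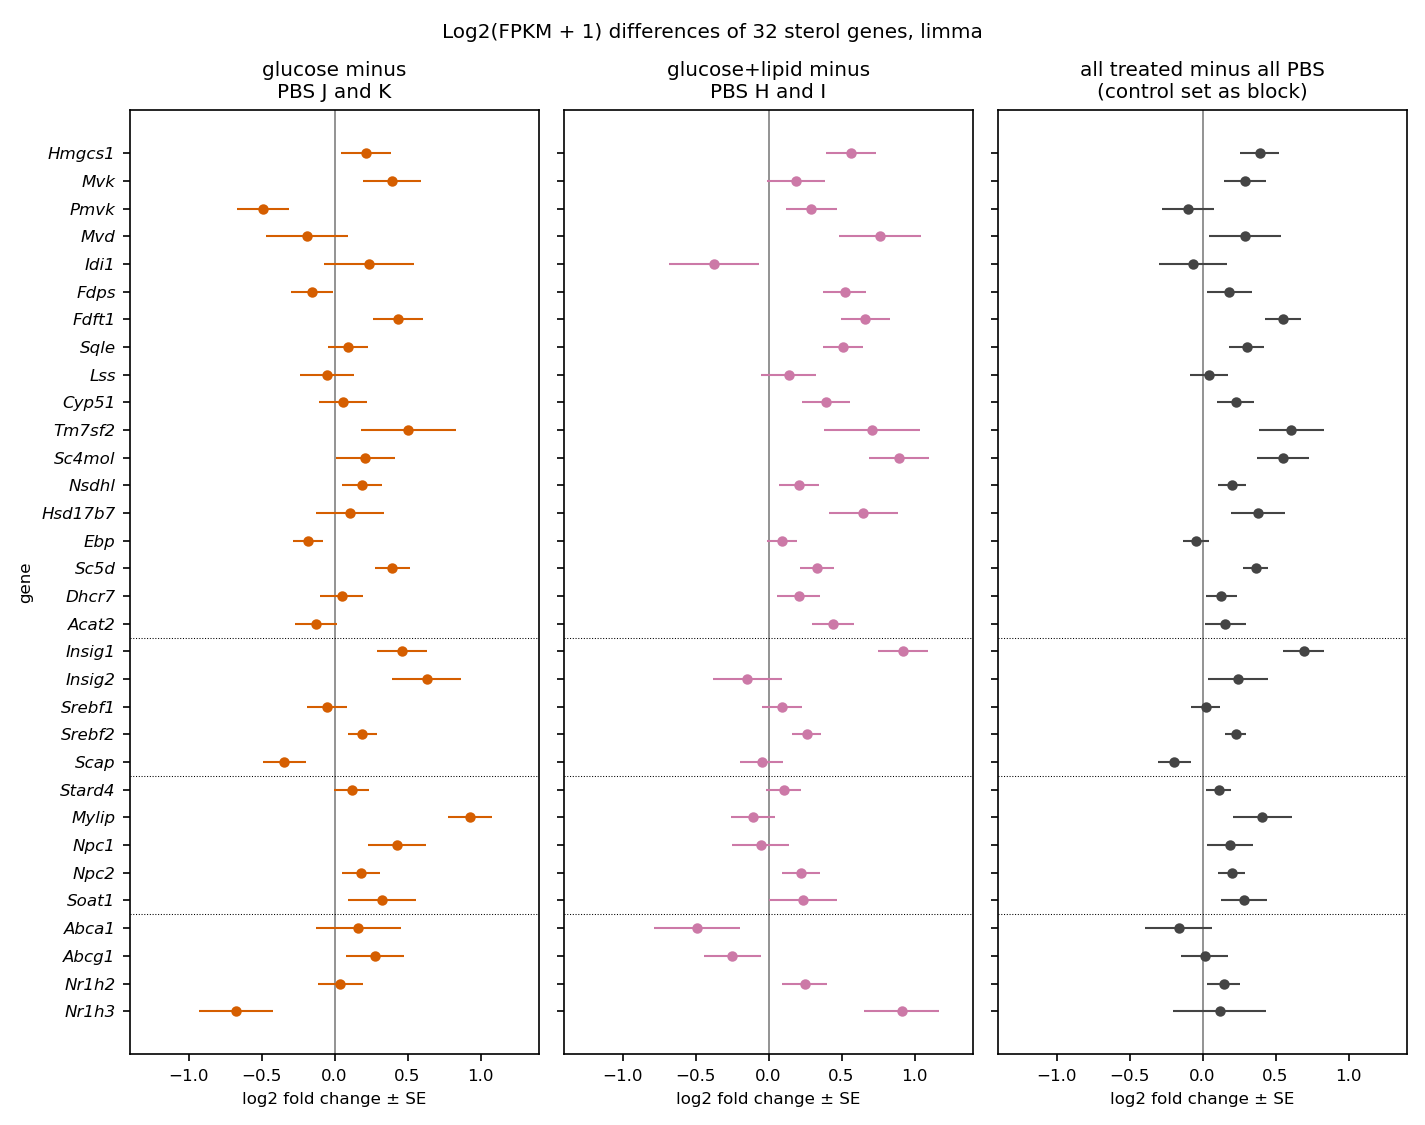
Points are log2 fold changes of 32 genes with bars of 1 SE on the log2(FPKM + 1) scale, for glucose, glucose+lipid and all treated libraries, each against its PBS libraries; dotted lines part the roles. Of the 18 synthesis enzymes at the top, 17 lie right of 0 in the middle panel and 12 in the left panel, and no gene passed the test in any panel.

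Among the genes of SREBP control, Insig1 had the smallest p after glucose+lipid and in all treated libraries. It stood at 28.3 and 33.5 FPKM after glucose and at 30.6 and 38.0 FPKM after glucose+lipid, against 15.9 and 19.4 FPKM in the PBS H and I pair and 20.4 and 23.9 FPKM in the PBS J and K pair. All 4 treated libraries lay above all 4 PBS libraries. The log2 fold change was 0.92 ± 0.17 for glucose+lipid (SE, adjusted p = 0.164), 0.46 ± 0.17 for glucose (adjusted p = 0.286) and 0.69 ± 0.14 for all treated libraries (adjusted p = 0.143), so Insig1 did not pass in any of these. With the PBS pairs exchanged it was 0.60 for glucose+lipid and 0.78 for glucose. Without glucose+lipid replicate 1 it was 1.07 for glucose+lipid and 0.71 for all treated libraries. Insig1 lies on chromosome 5 at 28071363 to 28078662, plus strand.

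Srebf2 was also higher without overlap in all 4 treated libraries, by a smaller margin: 82.7 and 87.8 FPKM after glucose and 80.8 and 81.8 FPKM after glucose+lipid, against 71.96 and 63.7 FPKM in the PBS H and I pair and 75.8 and 73.3 FPKM in the PBS J and K pair. With Fdft1, Sc5d and Insig1, it made up the 4 of 32 genes with this order, against 3.55% of all genes. The early response genes had the same order, 2799.6 to 3324 FPKM in treated and 1336 to 1560.3 FPKM in PBS libraries, and their part in it was not tested. Srebf1, which is better known for fatty acid genes, overlapped: 29.7 and 25.7 FPKM after glucose and 36.8 and 36.8 FPKM after glucose+lipid, against 38.2 and 31.1 FPKM in the PBS H and I pair and 27.8 and 29.6 FPKM in the PBS J and K pair. Scap stood at 32.04 and 30.7 FPKM after glucose, below the 44.4 and 36.2 FPKM of PBS J and K, while its levels after glucose+lipid (35.4 and 30.4 FPKM) overlapped those of PBS H and I (36.7 and 31.3 FPKM).

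Insig2, the other Insig gene, was higher without overlap after glucose (22.3% of all genes), as Insig1 was, and lower without overlap after glucose+lipid (21.8%). It stood at 20.6 and 14.6 FPKM after glucose, against 13.8 and 8.51 FPKM in the PBS J and K pair, a log2 fold change of 0.63 ± 0.24 (adjusted p = 0.293) that was 0.11 with PBS H and I as controls. It was 0.40 without glucose replicate 1, 0.95 without PBS replicate 3 and 0.31 without PBS replicate 4. After glucose+lipid it stood at 14.9 and 13.8 FPKM, below the 16.3 and 15.6 FPKM of PBS H and I. Of the 5 control genes none passed in any comparison. At an unadjusted p under 0.05, 2 were higher (6.41% of all genes) and 1 lower (8.44%) after glucose, 2 were higher after glucose+lipid (5.87%), and 2 were higher in all treated libraries (6.18%).

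**Figure D4:**
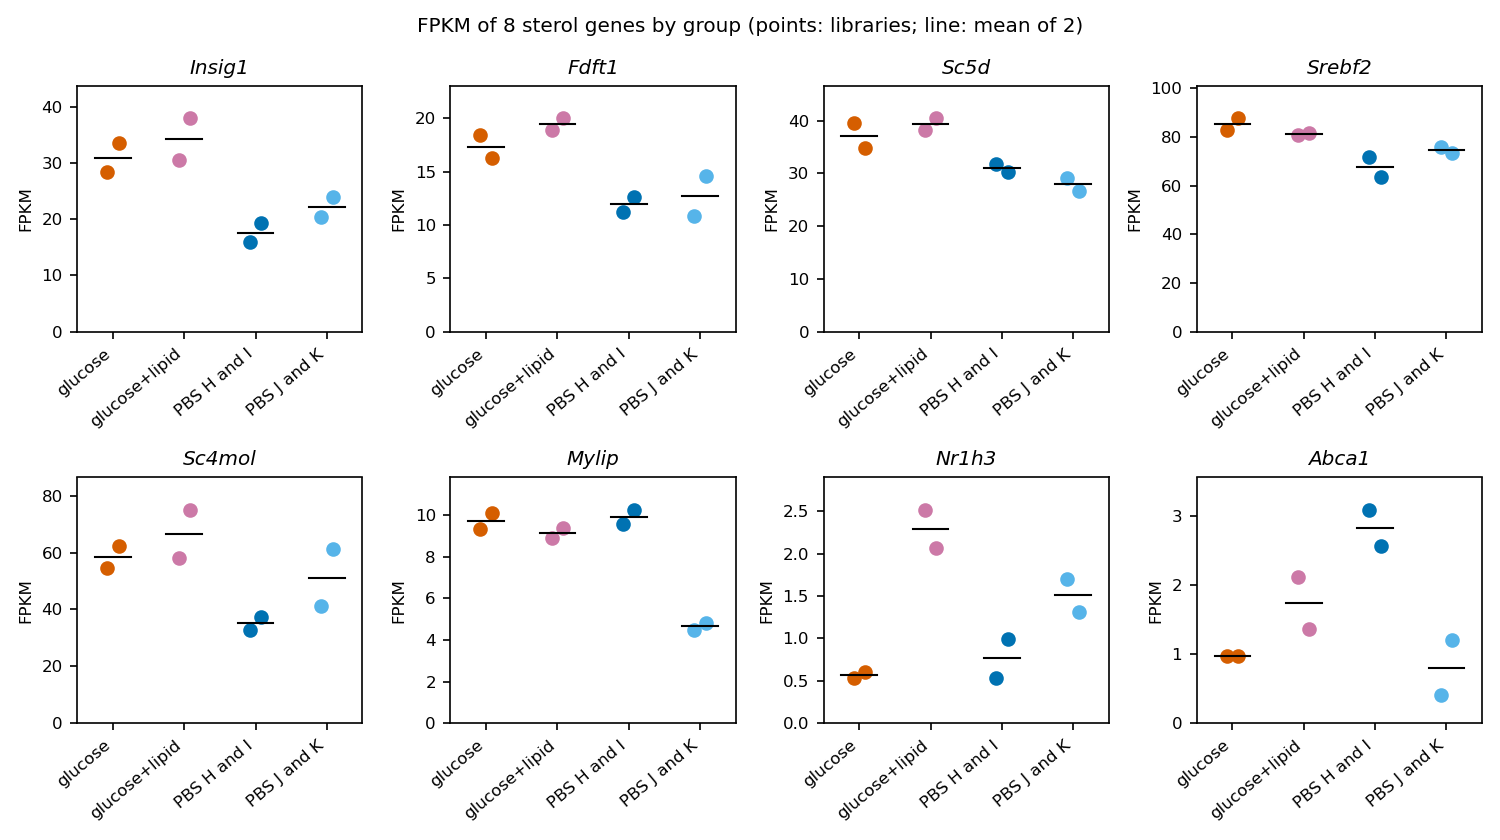
Each point is the FPKM of 1 library and each line the mean of the 2 libraries of a group, for 8 genes, on linear axes that start at 0. For Insig1, Fdft1, Sc5d and Srebf2 all treated libraries lie above all PBS libraries, for Mylip only PBS J and K lie apart, and Nr1h3 and Abca1 are below 3.1 FPKM throughout.

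Mylip, the ligase that marks lipoprotein receptors for degradation, had the smallest p of the 32 genes after glucose. It stood at 9.36 and 10.1 FPKM after glucose, against 4.48 and 4.84 FPKM in the PBS J and K pair, a log2 fold change of 0.93 ± 0.15 (adjusted p = 0.105). It stood at 8.92 and 9.40 FPKM after glucose+lipid, against 9.59 and 10.3 FPKM in the PBS H and I pair. PBS J and K were thus the only libraries below 8.9 FPKM, and the log2 fold change of glucose against PBS H and I was -0.026. The PBS pairs differed from each other by 0.95 ± 0.15 (H and I over J and K, adjusted p = 0.0985), and the effect of glucose+lipid minus that of glucose was -1.03 ± 0.21 (adjusted p = 0.238), which turned to 0.87 with the pairs exchanged. Mylip lies on chromosome 13 at 45389742 to 45412022, plus strand.

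None of the 5 genes of uptake, transport and storage passed in any comparison. Npc1, which moves cholesterol out of lysosomes, stood at 8.30 and 10.9 FPKM after glucose, against 5.96 and 7.78 FPKM in the PBS J and K pair, and at 7.12 and 7.95 FPKM after glucose+lipid, against 7.44 and 8.30 FPKM in the PBS H and I pair. Its soluble partner Npc2 stood at 42.6 and 42.5 FPKM after glucose, against 33.5 and 42.0 FPKM in the PBS J and K pair, and at 45.6 and 41.8 FPKM after glucose+lipid, against 37.0 and 37.6 FPKM in the PBS H and I pair. Stard4, a carrier of cholesterol between membranes and a known SREBP target, ranged over the 8 libraries from 20.0 to 23.2 FPKM, the narrowest relative range of the 32 genes. Soat1, which esterifies cholesterol for storage, stood at 10.3 FPKM in glucose+lipid replicate 1 and at 5.09 to 7.55 FPKM in the other 7 libraries. Replicate 1 is the library with 65268 FPKM of neutrophil markers and 648.8 FPKM of macrophage and monocyte markers. It also held 2948 FPKM of erythroid and 242.5 FPKM of B and plasma cell markers. The part of these transcripts in the Soat1 level was not tested. After glucose all 5 genes lay above both PBS J and K libraries without overlap (22.3% of all genes), and after glucose+lipid 1 lay above PBS H and I (22.2%) and 1 below (21.8%), near the shares over all genes. Against PBS H and I, the median of the 5 after glucose was 0.12, and against PBS J and K it was 0.33. After glucose+lipid it was 0.10, and 0.015 without glucose+lipid replicate 1.

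Nr1h3, the LXR gene found mainly in macrophages, liver and fat, was low and differed between groups. It stood at 2.52 and 2.07 FPKM after glucose+lipid, against 0.533 and 0.991 FPKM in the PBS H and I pair, and at 0.533 and 0.598 FPKM after glucose, against 1.70 and 1.31 FPKM in the PBS J and K pair. The groups did not overlap in either comparison, and the directions were opposite. Of all genes, 22.2% were higher without overlap after glucose+lipid and 24.8% lower without overlap after glucose. The log2(FPKM + 1) scale understates such low values: the log2 fold change was 0.91 ± 0.26 for glucose+lipid (adjusted p = 0.272) and -0.67 ± 0.26 for glucose (adjusted p = 0.295). The difference of these effects was 1.59 ± 0.36 (adjusted p = 0.287). With a pseudocount of 0.1 the 3 values were 1.52, -1.26 and 2.78. With the pairs exchanged the difference was 0.55, the effect of glucose+lipid 0.40 and that of glucose -0.16. Macrophage and monocyte markers summed to 648.8 and 66.4 FPKM in the glucose+lipid libraries. Neutrophil markers summed to 65268 and 178.9 FPKM there and erythroid markers to 2948 and 1708 FPKM. The part of these transcripts in the Nr1h3 level was not tested. Without replicate 1 its log2 fold change for glucose+lipid was 0.81. Nr1h3 lies on chromosome 2 at 91184061 to 91202834, minus strand. Nr1h2 stood at 42.3 and 34.7 FPKM after glucose, against 39.9 and 35.0 FPKM in the PBS J and K pair, and at 40.5 and 39.6 FPKM after glucose+lipid, against 37.7 and 29.9 FPKM in the PBS H and I pair.

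The LXR target exporters were highest in the PBS H and I pair. Abca1, which loads cholesterol onto lipid-poor apolipoproteins, stood at 0.966 and 0.975 FPKM after glucose, against 0.404 and 1.20 FPKM in the PBS J and K pair, and at 2.11 and 1.36 FPKM after glucose+lipid, against 3.09 and 2.56 FPKM in the PBS H and I pair. Between the PBS pairs its log2 fold change was 1.12 ± 0.29 (H and I over J and K, adjusted p = 0.162), and 1.84 with a pseudocount of 0.1. Abcg1, which passes cholesterol to larger lipoprotein particles, stood at 24.6 and 30.1 FPKM after glucose, against 17.97 and 27.6 FPKM in the PBS J and K pair, and at 29.9 and 30.0 FPKM after glucose+lipid, against 36.6 and 34.9 FPKM in the PBS H and I pair. In both exporters each PBS H and I library exceeded the other 6. After glucose+lipid both lay below their controls without overlap (21.8% of all genes), while Nr1h2 and Nr1h3 lay above theirs (22.2%). With PBS J and K as controls the log2 fold changes were 0.62 for Abca1 and 0.41 for Abcg1. Neither passed in any comparison.

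The effects of glucose+lipid and of glucose were set against each other by the difference of their log2 fold changes. None of the 32 genes passed (background 0.00838% of all genes in each direction, 0.0168% together), with 6 higher (6.03%) and 1 lower (6.18%) at an unadjusted p under 0.05. The synthesis enzymes had a median difference of 0.30, against 0.031 over all genes tested, and Fdps one of 0.68 ± 0.21 (adjusted p = 0.316). With the pairs exchanged the median was -0.26 and that of Fdps -0.47, and with all 4 PBS libraries as common controls the median was 0.075. The difference between glucose+lipid and glucose in these enzymes thus had the sign of the control pair chosen. Without glucose replicate 2 the median was 0.41, and without PBS replicate 3 it was 0.46.

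Sterol genes outside the 32 were listed in 4 groups by role. Of 13 listed for synthesis and the isoprenoid branch, 11 were tested. None passed in any comparison (0.0168% to 0.268% of all genes). For all treated against all PBS libraries 3 were above 0 (48.7% of all genes), with a median of -0.017, against -0.007 over all genes tested. The 13 genes of SREBP processing and sterol-regulated degradation had a median of -0.10 there, and the 14 tested genes of uptake and intracellular transport one of 0.13. The 12 tested LXR partners, oxysterol enzymes and efflux genes had one of 0.20. At an unadjusted p under 0.05 there, the 4 lists in this order had 0, 0, 4 and 2 genes higher (6.18% of all genes). They had 1, 0, 0 and 1 lower (5.22%). The genes with the smallest p per list were Pdss1, which makes the side chain of ubiquinone, the COPII coat gene Sec24d, the sterol carrier Stard5, and the retinoid X receptor gene Rxrb, a partner of LXR. Pdss1 stood at 15.8 and 17.4 FPKM after glucose and 22.1 and 15.7 FPKM after glucose+lipid, against 22.2 and 18.1 FPKM in the PBS H and I pair and 35.3 and 30.9 FPKM in the PBS J and K pair. Its log2 fold change was -0.53 ± 0.19 for all treated libraries (adjusted p = 0.374). It was -0.95 ± 0.19 for glucose (adjusted p = 0.159) and -0.099 ± 0.19 for glucose+lipid (adjusted p = 0.884). Between the PBS pairs it was -0.69 ± 0.19 (H and I over J and K, adjusted p = 0.162), so the glucose value depends on the pair chosen. Rxrb stood at 26.7 and 24.9 FPKM after glucose and 36.9 and 32.7 FPKM after glucose+lipid, against 41.3 and 38.5 FPKM in the PBS H and I pair and 33.8 and 33.0 FPKM in the PBS J and K pair. Its log2 fold change was -0.28 ± 0.087 for all treated libraries (adjusted p = 0.347). Those of Stard5 and Sec24d were 0.36 ± 0.14 (adjusted p = 0.395) and -0.33 ± 0.15 (adjusted p = 0.459). Next in each list were Acly (log2 fold change -0.23 ± 0.13), Fbxw7 (0.22 ± 0.14), Lipa (0.27 ± 0.11) and Smpdl3a (0.41 ± 0.16), whose adjusted p ran from 0.392 to 0.556.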

How the data were processed

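Deposited FPKM values, 1 per gene symbol and library, were used as the authors gave them. Per the submitters' processing notes, Cuffnorm 2.2.1, Bowtie2 2.2.3, TopHat2 2.0.13 and SAMtools 1.0 were used with mm10. The file headers do not state the unit, which was read from the values and Cuffnorm's output; for gene annotation and library scaling the sources used here give nothing. RNA came from about 10000 sorted cells, amplified with SMART-Seq HT, per the labels' protocols. Counts were not used here; depth was estimated from the value of 1 fragment, over 159 genes with 1 transcript.

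Values were transformed to log2(FPKM + 1). Genes reaching 1 FPKM in 2 or more libraries, 11931 in all, were fitted in limma 3.58.1 (R 4.3.3) with a mean-variance trend. All 8 libraries entered 1 fit of 4 group means with 4 residual degrees of freedom; all treated against all PBS was fitted as treatment plus control pair. P-values are 2-sided and adjusted by Benjamini-Hochberg over all genes tested, with a threshold of 0.05. Fold change and adjusted p are given for the 6 genes with the smallest p in each treatment comparison and for 3 in each other one. The genes, lists and tests were chosen with earlier results of these data known. Alternatives were another pseudocount, filters, scaling, other controls, a block and each library left out. The procedure was tested on simulated data. Positions are from GENCODE vM21 (GRCm38), and promoters from RefSeq.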

Additional observations from a re-analysis of the deposited data

How the results depend on the processing

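No tested member passed in a comparison under the alternatives run for it, 16 for glucose+lipid and fewer for the others; at a filter of 3 FPKM, 2 of the 4 LXR and efflux genes were tested. The smallest adjusted p of a member was 0.079, for Mylip between the PBS pairs. The median of the synthesis enzymes depended on the controls. With the pairs exchanged it was 0.34 for glucose, 0.071 for glucose+lipid and -0.26 for the difference of effects, and with all 4 PBS libraries as controls it was 0.18 for glucose, 0.25 for glucose+lipid and 0.075 for the difference; the cause was not tested. Leaving out each library gave -0.0088 to 0.20 for glucose, 0.38 to 0.46 for glucose+lipid, 0.23 to 0.46 for the difference, -0.38 to -0.15 for the PBS H and I pair against the other PBS pair, and 0.17 to 0.32 for all treated libraries. With the pairs exchanged, Mylip turned to -0.026 for glucose and 0.87 for the difference, and Fdps to -0.0505 for glucose+lipid and -0.47 for the difference. Over the named genes and the counts of synthesis enzymes above 0, the other 300 alternatives kept the direction or a similar count. Many of these could not change a fold change. In some the library left out was outside the comparison, and in others only the filter, the block or the set of fitted libraries changed. Scaling factors ran from 0.9978 to 1.0043, so scaling also moved little. The 300 is therefore no measure of robustness. The adjusted p of Insig1 for glucose+lipid ran from 0.137 to 0.717, and for all treated libraries from 0.0909 to 0.421. The letters H and I as a replicate block called no member and left the glucose+lipid median at 0.42. The deviations of same-lettered libraries correlated at 0.066 across genes. The neutrophil transcripts of glucose+lipid replicate 1 enter this value, so it cannot exclude pairing. The main fit left the libraries unpaired. With approximate depths and 2 libraries a group, changes of low genes such as Nr1h3 and Abca1 are the least certain.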

Other observations

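Ratios of related transcripts, per length, were computed in each library as a description, after their levels were seen. Insig1 over Insig2 was 1.38 and 2.29 after glucose and 2.05 and 2.76 after glucose+lipid, against 0.971 and 1.24 in PBS H and I and 1.48 and 2.81 in PBS J and K. PBS replicate 4 had the highest ratio of the 8 libraries, so the ratio does not part treated from PBS libraries as Insig1 alone does. Srebf2 over Srebf1 was 2.79 and 3.42 after glucose and 2.19 and 2.23 after glucose+lipid, against 1.89 and 2.05 in PBS H and I and 2.73 and 2.48 in PBS J and K. Each treated pair lay above its own controls, and glucose+lipid lay below PBS J and K. Nr1h2 over Nr1h3 was 79.4 and 58.1 after glucose and 16.1 and 19.2 after glucose+lipid, against 70.7 and 30.1 in PBS H and I and 23.5 and 26.7 in PBS J and K. Nr1h2 exceeded Nr1h3 by at least 16.1 times in every library.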
